A study of Mus musculus with 168 samples.

Results

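The 10 genes described here lie on chromosome 5, all on one flank of Htt, the gene that encodes huntingtin and that carries the CAG repeat expanded in Huntington's disease. They are Nub1, Galnt11, Actr3b, Gm5067, Gm5862, Gm10471, 5031410I06Rik, Rnf32, Drc1 and Abhd1. They are 10 of the 39179 gene IDs in the cortex count table, and each was taken because its symbol was on a list of named genes and its gene lies within 20 Mb of Htt. The genes were chosen by genotype differences of their cortex counts in these same libraries, so every level and difference between genotypes below is a description and supports nothing by itself. Another 427 gene IDs of the table lie in that window, 281 at lower coordinates than Htt, 145 at higher coordinates and 1 overlapping it.

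Polyadenylated RNA of mouse cerebral cortex was sequenced in 21 groups of 8 libraries. The mice were C57BL/6, either wild type (WT) or heterozygous for 1 of 6 Htt knock-in alleles named by their nominal CAG length: Q20, Q80, Q92, Q111, Q140 and Q175. Each of the 7 genotypes was sampled at 2, 6 and 10 months of age, with 83 libraries from females and 85 from males. Every knock-in mouse thus kept 1 wild-type Htt allele, knock-in mice were housed with mice of their own allele, and WT mice were housed with Q20 mice. The labels name the same strain for all alleles, and how and in which line each allele was made is not given in the sources used here.

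Genes that lie close together on a chromosome are usually inherited together, so alleles of neighbouring genes tend to pass through crosses as a block. Huntingtin is a large scaffold protein found throughout the brain, and the length of its polyglutamine tract strongly influences when disease begins in people. The 10 neighbours share no pathway. Drc1 belongs to the nexin-dynein regulatory complex of motile cilia, Galnt11 starts mucin-type O-glycosylation, Nub1 directs the ubiquitin-like protein NEDD8 and its conjugates to the proteasome, and Actr3b is a paralogue of the actin-related protein of the Arp2/3 complex that branches actin filaments.

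All 10 genes lie at lower coordinates than Htt, which spans chr5:34761740-34912534 on the plus strand of GRCm38. Nub1 (chr5:24685532-24710378, plus strand) was the farthest, 10.05 Mb away, followed by Galnt11 (chr5:25221904-25265918, plus strand) at 9.5 Mb and Actr3b (chr5:25759997-25850688, plus strand) at 8.91 Mb. The next 4 genes lay within a short stretch. They were the processed pseudogene Gm5067 (chr5:26007027-26008035, plus strand) at 8.75 Mb, and on the minus strand Gm5862 (chr5:26017278-26022916), Gm10471 (chr5:26082574-26089291) and 5031410I06Rik (chr5:26098668-26105362) at 8.74, 8.67 and 8.66 Mb. Nearer to Htt lay Rnf32 (chr5:29195992-29228457, plus strand), which encodes a RING finger protein, at 5.53 Mb. Drc1 (chr5:30281388-30366695, plus strand) lay 4.4 Mb away and Abhd1 (chr5:30950066-30955091, plus strand), of the alpha/beta hydrolase fold family, 3.81 Mb away. The annotation used here lists Abhd1 as a processed transcript and not as protein-coding.

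A set of 3 of these genes are near copies of one another, which bears on how far their reads can be told apart. Over the coding sequence Gm5862 and 5031410I06Rik (801 bases each) were 98.1% identical, and Gm10471 (756 bases) was 97.6% identical to either of them. The same 90 bases of coding sequence are given from each gene, on the minus strand of GRCm38 at chr5:26019417-26019506 for Gm5862, chr5:26085664-26085753 for Gm10471 and chr5:26101783-26101872 for 5031410I06Rik. Capitals mark the 6 positions at which the 3 genes are not all alike.
Gm5862: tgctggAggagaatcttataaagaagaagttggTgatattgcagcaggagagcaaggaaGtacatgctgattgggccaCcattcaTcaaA
Gm10471: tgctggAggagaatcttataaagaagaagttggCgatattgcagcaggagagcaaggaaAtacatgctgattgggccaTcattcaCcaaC
5031410I06Rik: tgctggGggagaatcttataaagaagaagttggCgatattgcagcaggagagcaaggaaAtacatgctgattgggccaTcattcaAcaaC
In this stretch Gm5862 differed from Gm10471 at 5 bases and from 5031410I06Rik at 6, and the latter pair differed at 2 bases from each other.

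How much of each transcript could be assigned to 1 gene differed widely among the 10. Of the words of 75 bases in the transcripts of 5031410I06Rik, 93.3% also occurred in transcripts of other genes, against 80.0% for Gm5862, 33% for Gm5067 and 31.8% for Gm10471. For Gm10471 the genes sharing words included Speer4a, a member of a testis gene family that is repeated on this chromosome. No word of Drc1, Actr3b or Rnf32 occurred elsewhere. For Abhd1 58.6% of words lay on the strand opposite Preb, for Nub1 7.95% opposite Gm26648, and for Galnt11 3.47% in other genes, almost all opposite E130116L18Rik. Whether reads were counted by strand is not given in the sources used here, so reads of these overlapping pairs cannot be told apart. The deposited counts were fractional in every library for Nub1 and Abhd1, in 137 to 159 libraries for the 4 repeat-bearing genes, in 26 for Galnt11, in 1 for Rnf32 and in none for Drc1 and Actr3b.

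Upstream sequence was at hand for 7 of the 10 genes, in 8 promoters of 250 bases from RefSeq (GRCm38.p6). Those of Drc1 (chr5:30281143-30281392, plus strand), Gm10471 (chr5:26089265-26089514, minus strand) and 5031410I06Rik (chr5:26105315-26105564, minus strand) are shown because they belong to genes that were higher in the long alleles and because each holds both motifs searched that occurred at all. Capitals mark GTTGCC or its reverse complement GGCAAC, and CCAAT or its reverse complement ATTGG, and in the latter pair of promoters both motifs overlap in 1 run.
Drc1: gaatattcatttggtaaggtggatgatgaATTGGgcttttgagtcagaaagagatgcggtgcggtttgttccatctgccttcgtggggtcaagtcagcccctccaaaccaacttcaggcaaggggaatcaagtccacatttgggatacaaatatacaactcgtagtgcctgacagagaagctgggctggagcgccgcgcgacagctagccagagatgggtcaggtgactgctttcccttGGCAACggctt
Gm10471: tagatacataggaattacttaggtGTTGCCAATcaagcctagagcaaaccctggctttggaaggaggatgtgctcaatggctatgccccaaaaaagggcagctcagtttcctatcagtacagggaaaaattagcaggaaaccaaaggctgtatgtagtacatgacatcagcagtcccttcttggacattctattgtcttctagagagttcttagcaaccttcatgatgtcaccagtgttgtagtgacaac
5031410I06Rik: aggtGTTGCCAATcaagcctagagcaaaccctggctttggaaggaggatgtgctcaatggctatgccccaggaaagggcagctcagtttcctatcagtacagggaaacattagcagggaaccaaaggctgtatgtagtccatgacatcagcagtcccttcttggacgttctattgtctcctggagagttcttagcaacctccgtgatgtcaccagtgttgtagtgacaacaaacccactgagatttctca
The first motif, which the X-box bound by regulatory factor X proteins contains, also occurred in the second promoter of Galnt11 and in 10.4% of 32851 promoters of the same length. CCAAT occurred in 33.8% of them. TATAAA or its reverse complement TTTATA occurred in none of the 8 and in 12.4% of all.

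Total counts per library ran from 29338750 to 47353396, with a median of 34941803. Levels are given as CPM, counts scaled by edgeR to a common TMM-normalised library size without regard to gene length, and each group of 8 is given by its lowest, median and highest library. In all, 5 libraries had a median correlation below 0.98 with the other libraries and are treated below as standing apart. They were 2 Q80 libraries, 1 Q92 library and 1 WT library at 2 months and 1 Q140 library at 10 months. At 6 months the library names of the WT group came from another series than those of the knock-in groups, so genotype and library series cannot be told apart in any comparison with WT at that age. Markers of cortical excitatory neurons summed to at least 1150 CPM in every library, and those of striatal projection neurons to between 25.1 and 140 CPM. Group medians of the striatal markers ran from 79.0 to 102 CPM at 2 months, 67.9 to 101 CPM at 6 months and 28.9 to 35.9 CPM at 10 months. The part of this age difference in the results was not tested. Markers of choroid plexus summed to between 9.5 and 2140 CPM across the libraries at 10 months, and their part in the results was not tested. In whole tissue, fewer cells of a type and less RNA per cell cannot be told apart, and nothing in the labels says more than that each library is a separate numbered sample.

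The median of Abhd1 was lower in WT than in each of the 6 knock-in alleles, Q20 included, at all 3 ages. At 2 months WT libraries held 1.45, 2.08 and 7.17 CPM (lowest, median and highest), Q20 libraries 1.72, 5.24 and 5.53 CPM and Q80 libraries 5.06, 6.05 and 8.88 CPM. At 10 months the values were 1.33, 1.87 and 4.89 CPM in WT, 4.74, 5.24 and 5.87 CPM in Q20 and 4.58, 5.45 and 5.91 CPM in Q140. Apart from 1 WT library at each of these ages, WT lay below nearly every knock-in library, whereas Q20 and the longer alleles overlapped.

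The Abhd1 level fell into 2 bands with no library between 2.75 and 4.1 CPM, a 1.49-fold gap that was noticed after the values were seen. The lower band held 33 libraries and the upper band 135. Of the 24 libraries of each genotype, the lower band held 22 of WT, 3 of Q20, 2 of Q92, 1 of Q111, 5 of Q175 and none of Q80 or Q140. Most WT libraries thus lay in the lower band and most libraries of every knock-in allele in the upper one, with 13 libraries on the other side from most of their genotype.

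Differences of Abhd1 from WT were positive in 15 of 15 comparisons of Q80 to Q175 over the 3 ages, with a median of 1.34 on the log2 scale. At 10 months edgeR's quasi-likelihood test called Abhd1 in all 6 alleles, from 1.35 (SE 0.19, adjusted p = 4e-05) in Q80 to 0.81 (SE 0.19, adjusted p = 0.0028) in Q175. The comparisons of the longer alleles called 0.0581% (Q80), 0.0174% (Q92), 0.00581% (Q111), 0.354% (Q140) and 8.61% (Q175) of all genes. Q20 exceeded WT by 1.33 (SE 0.19, adjusted p = 5.5e-05), and Abhd1 was the 1 gene called between those groups, 0.00581% of 17219 tested. At 2 months 1 of the alleles was called against WT, Q80 by 1.34 (SE 0.25, adjusted p = 0.01), in a comparison calling 0.0349% of genes. Without the libraries standing apart the difference was 1.59 (adjusted p = 0.0007). Those left out include the WT female at 7.17 CPM, the 1 WT library of that age in the upper band. At 6 months all 6 alleles were called, from 1.22 (SE 0.2) in Q20 to 1.54 (SE 0.2) in Q111, in comparisons that called 31.3% (Q20), 32.6% (Q80), 29% (Q92), 35.7% (Q111), 34.1% (Q140) and 42.3% (Q175) of all genes. No difference of Abhd1 from Q20 was called at any age, where the log2 differences ran from -0.52 to 0.45.

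Preb, the gene on the opposite strand of Abhd1, had group medians between 65.7 and 75.7 CPM. It was higher in Q175 than in WT at 6 months by 0.12 (SE 0.02, edgeR adjusted p = 4.5e-06), and the difference was -0.04 (SE 0.03, adjusted p = 0.52) at 10 months. In the WT library of 2 months with 7.17 CPM of Abhd1, Preb stood at 75.8 CPM, and in the Q175 library of 2 months with 1.44 CPM of Abhd1 it stood at 67.6 CPM.

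The 11 knock-in libraries of the lower Abhd1 band are given with their values for the other genes. They were picked by a gap seen in these data, so their ranks within groups are descriptions and no test was made. The 5 Q175 libraries (1 at 2 months, 1 at 6 months and 3 at 10 months) held 1.44, 2.21, 1.81, 1.8 and 1.76 CPM of Abhd1 and, in the same order, 14.8, 14.6, 11.1, 11.3 and 11.4 CPM of Drc1. The same libraries held 34.9, 35.2, 37.8, 40.3 and 35.6 CPM of Galnt11 and 0.0488, 0.0232, 0.113, 0.0286 and 0.334 CPM of Gm10471. The Q111 library held 1.66 CPM of Abhd1, 14.9 CPM of Drc1 and 0.0528 CPM of Gm10471, but 40.2 CPM of Galnt11. In the Q92 libraries of 2 and 6 months Abhd1 stood at 2.28 and 1.62 CPM, Drc1 at 15.5 and 15.3 CPM and Galnt11 at 37.4 and 33.6 CPM. The 3 Q20 libraries (1 at 2 months and 2 at 6 months) held 1.72, 2.27 and 1.77 CPM of Abhd1 and 37.4, 33.1 and 34.3 CPM of Galnt11. Their Drc1 stood at 15.2 and 15.8 CPM in the first 2 and was the third lowest of its group in the last. In Q92, Q111 and Q175 the libraries of the lower band had the lowest Drc1 values of their groups of 8 (the 3 lowest in Q175 at 10 months), while none of the Q20 libraries was the lowest of its group. The 2 WT libraries of the upper band held 16.8 CPM of Drc1 (2 months) and 14.1 CPM (10 months).

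**Figure D1:**
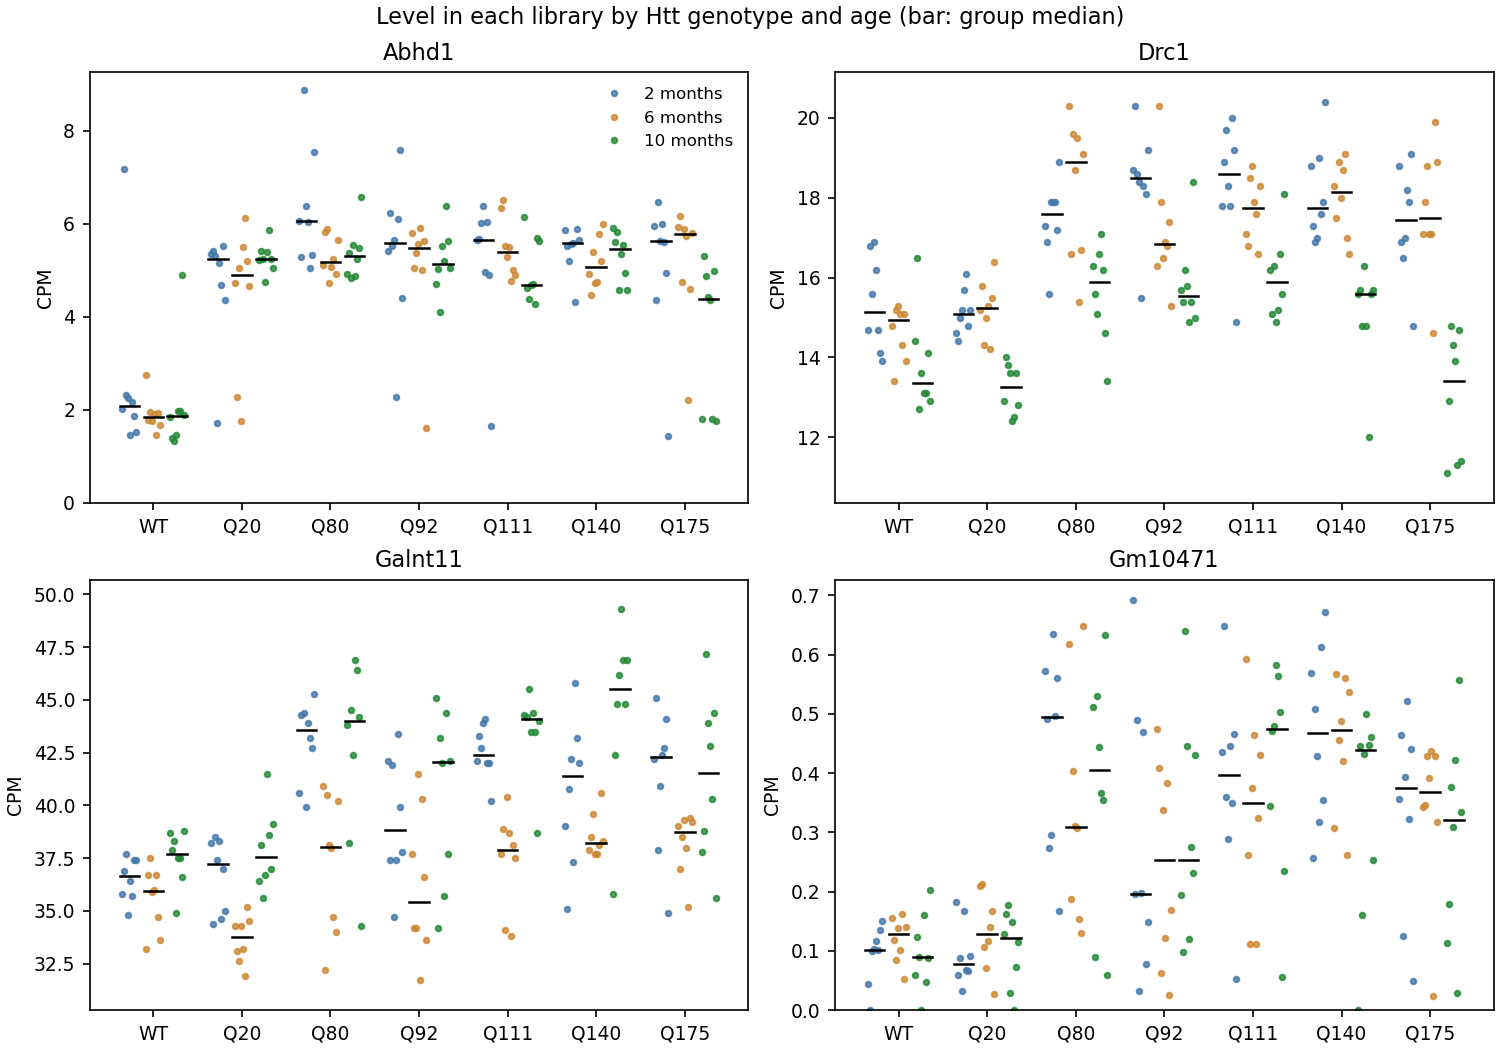
Levels of Abhd1, Drc1, Galnt11 and Gm10471 in CPM (vertical axes, starting at 0 for Abhd1 and Gm10471 and above 0 for the others) by genotype and age, with 1 point per library and a bar at the median of each group of 8. Abhd1 falls into 2 bands with no library between 2.75 and 4.1 CPM, while for Galnt11 and Gm10471 the medians of Q80 to Q175 lie above those of WT and Q20 of the same age in all groups but 1 (Galnt11 of Q92 at 6 months), and most of their ranges overlap those of WT or Q20. Drc1 of Q175 at 10 months has the same median as WT.

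Drc1, the ciliary complex subunit, was higher in the 5 longer alleles than in WT and Q20 at 2 and 6 months, and at 10 months Q175 stood at their level. At 2 months WT libraries held 13.9, 15.2 and 16.9 CPM, Q20 libraries 14.4, 15.1 and 16.1 CPM, Q92 libraries 15.5, 18.5 and 20.3 CPM and Q111 libraries 14.9, 18.6 and 20.0 CPM. At 10 months the values were 12.4, 13.2 and 14.0 CPM in Q20, 14.9, 15.9 and 18.1 CPM in Q111 and 11.1, 13.4 and 14.8 CPM in Q175. At each age the medians of Q80 to Q140 lay above every Q20 library, and Q175 at 10 months spread across the range of Q20.

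Drc1 exceeded Q20 by 0.28 in Q92 at 2 months (SE 0.05, edgeR adjusted p = 0.024), in a comparison that called 0.0291% of genes. At 6 months it was called against Q20 in Q80 (0.26, SE 0.05, adjusted p = 0.034), Q140 (0.24, SE 0.05, adjusted p = 0.0012) and Q175 (0.21, SE 0.05, adjusted p = 0.0038), where 0.0114%, 2.29% and 9.6% of genes were called. In Q92, where 0.965% were called, it missed the threshold (0.17, SE 0.05, adjusted p = 0.1). At 10 months none was called, with Q111 at 0.28 (SE 0.06, adjusted p = 0.061) and Q175 at -0.01 (SE 0.06, adjusted p = 0.95). A test of whether the genotype differences of Drc1 changed with age gave an unadjusted p of 0.025 between 2 and 10 months (edgeR adjusted p = 0.31) and of 0.0057 over the 3 ages of the 6 knock-in alleles (adjusted p = 0.064). DESeq2's likelihood ratio test called the latter (adjusted p = 0.047). These tests cover all alleles together, and the change of the Q175 difference alone was not tested.

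Galnt11, which transfers the first sugar of mucin-type glycans, was higher in every one of 15 comparisons of Q80 to Q175 with Q20 and in every one of 15 with WT, with median log2 differences of 0.16 and 0.14. At 2 months WT libraries held 34.8, 36.6 and 37.7 CPM, Q20 libraries 34.4, 37.2 and 38.5 CPM, Q80 libraries 39.9, 43.5 and 45.3 CPM and Q111 libraries 40.2, 42.4 and 44.1 CPM. No library of Q80 or Q111 reached down to any WT or Q20 library at that age (against Q20, 0.0582% of genes did not overlap for Q80 and 0.0233% for Q111), and the Q92 libraries, at 34.7, 38.9 and 43.4 CPM, overlapped both. At 10 months Q20 libraries held 35.6, 37.5 and 41.5 CPM, Q140 libraries 35.8, 45.5 and 49.3 CPM and Q175 libraries 35.6, 41.5 and 47.2 CPM, so all groups overlapped.

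The Galnt11 difference from Q20 was called in Q80 at 2 months (0.23, SE 0.04, edgeR adjusted p = 0.013, in a comparison calling 0.0465% of genes), and without the libraries standing apart it was 0.21 with an adjusted p of 0.094. It was called at 6 months in Q140 (0.2, SE 0.04, adjusted p = 0.0024) and Q175 (0.18, SE 0.04, adjusted p = 0.0038), where 2.29% and 9.6% of genes were called. At 10 months it was called against WT in Q140 (0.24, SE 0.06, adjusted p = 0.035, 0.354% of genes called) and against Q20 in no allele (Q140 0.23, SE 0.06, adjusted p = 0.09). With the replicate number as a block that of Q80 at 2 months had an adjusted p of 0.053.

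The 4 genes between 8.66 and 8.75 Mb from Htt were expressed at low levels and were higher in Q80 to Q175 in all 15 comparisons with Q20 and in all 15 with WT. They are the 3 near copies and the processed pseudogene Gm5067, none of which has an established function. Median log2 differences from Q20 were 1.67 for Gm10471, 1.55 for 5031410I06Rik, 1.26 for Gm5067 and 0.93 for Gm5862. The differences are thus larger on the log2 scale than those of Nub1, Galnt11, Actr3b, Rnf32 and Drc1, but they rest on few reads. Median counts per library were 9.26 for Gm10471, 9.97 for Gm5862, 11.3 for 5031410I06Rik and 30.2 for Gm5067.

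Gm10471 held 0, 0.102 and 0.15 CPM in WT, 0.0324, 0.0776 and 0.183 CPM in Q20, 0.168, 0.494 and 0.635 CPM in Q80 and 0.256, 0.468 and 0.672 CPM in Q140 at 2 months. At 10 months it held 0, 0.121 and 0.177 CPM in Q20, 0.0561, 0.475 and 0.582 CPM in Q111 and 0, 0.439 and 0.499 CPM in Q140. Q140 lay wholly above WT and Q20 at 2 months (0.0291% of genes did not overlap between Q140 and Q20), while at 10 months at least 1 library of each group overlapped them. A count of 0, seen in 4 libraries for Gm10471 and 5 for 5031410I06Rik, allows up to 3 counts, or 0.0634 to 0.102 CPM, for counting error alone.

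Gm5067 stood at 0.215, 0.42 and 0.531 CPM in Q20 and at 0.569, 1.36 and 2.08 CPM in Q140 at 2 months. At 6 months its Q140 libraries, at 1.13, 1.59 and 2.0 CPM, lay above all Q20 libraries, at 0.379, 0.55 and 0.795 CPM, in a comparison where 0.806% of genes did not overlap. For 5031410I06Rik the medians at 10 months were 0.11 CPM in WT, 0.118 CPM in Q20 and 0.347 to 0.512 CPM in the longer alleles. Gm5862 had the smallest median difference of the 4, with medians at 10 months of 0.221 CPM in WT, 0.23 CPM in Q20 and 0.337 to 0.435 CPM in the longer alleles.

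By edgeR's test against Q20, Gm10471 was the 1 gene of the 4 called at 2 months, in Q80 (2.17, SE 0.45, adjusted p = 0.025), where 0.0465% of all genes were called. At 6 months all 4 were called in Q140, from Gm5862 (1.09, SE 0.31, adjusted p = 0.042) to Gm10471 (1.74, SE 0.38, adjusted p = 0.0031), in a comparison that called 2.29% of all genes. In Q175, where 9.6% of all genes were called, 3 of them were, and 5031410I06Rik missed the threshold (1.2, SE 0.43, adjusted p = 0.064). At 10 months none of the 4 was called against Q20, although the log2 differences ran from 0.76 to 1.94 with SEs of 0.33 to 0.54. Q92 had the smallest difference from Q20 of the 5 longer alleles for all 4 genes at 2 and 6 months.

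Nub1 and Actr3b, at the far end of the stretch, were lower in the longer alleles. Nub1 at 2 months held 87.6, 89.6 and 91.1 CPM in Q20 and 76.2, 80.8 and 85.5 CPM in Q80, groups that did not overlap, and 81.1, 86.2 and 90.5 CPM in Q111. At 10 months its Q175 libraries, at 87.0, 91.4 and 98.7 CPM, covered the whole range of Q20, at 87.4, 90.3 and 92.4 CPM. Nub1 was lower than Q20 in 14 of 15 comparisons with a median of -0.05 on the log2 scale. It was called in 1 of them, Q80 at 2 months (-0.14, SE 0.03, edgeR adjusted p = 0.0076), where 0.0465% of genes were called.

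Actr3b was lower than Q20 and than WT in all 15 comparisons with each, with medians of -0.09 and -0.1. At 2 months it held 69.5, 73.9 and 80.9 CPM in Q20 and 61.7, 65.6 and 70.1 CPM in Q80, with the ranges barely overlapping. At 6 months the values were 64.9, 71.9 and 75.8 CPM in Q20 and 57.1, 62.5 and 66.6 CPM in Q140. The difference was called at 6 months, in Q140 (-0.19, SE 0.03, edgeR adjusted p = 7.8e-05) and Q175 (-0.12, SE 0.03, adjusted p = 0.016), and in no allele at 2 or 10 months. Those comparisons called 2.29% (Q140) and 9.6% (Q175) of all genes at 6 months, 0% each at 2 months, and 0.128% and 7.61% at 10 months. Its 10-month differences from Q20 ran from -0.03 to -0.09, each with an SE of 0.04.

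**Figure D2:**
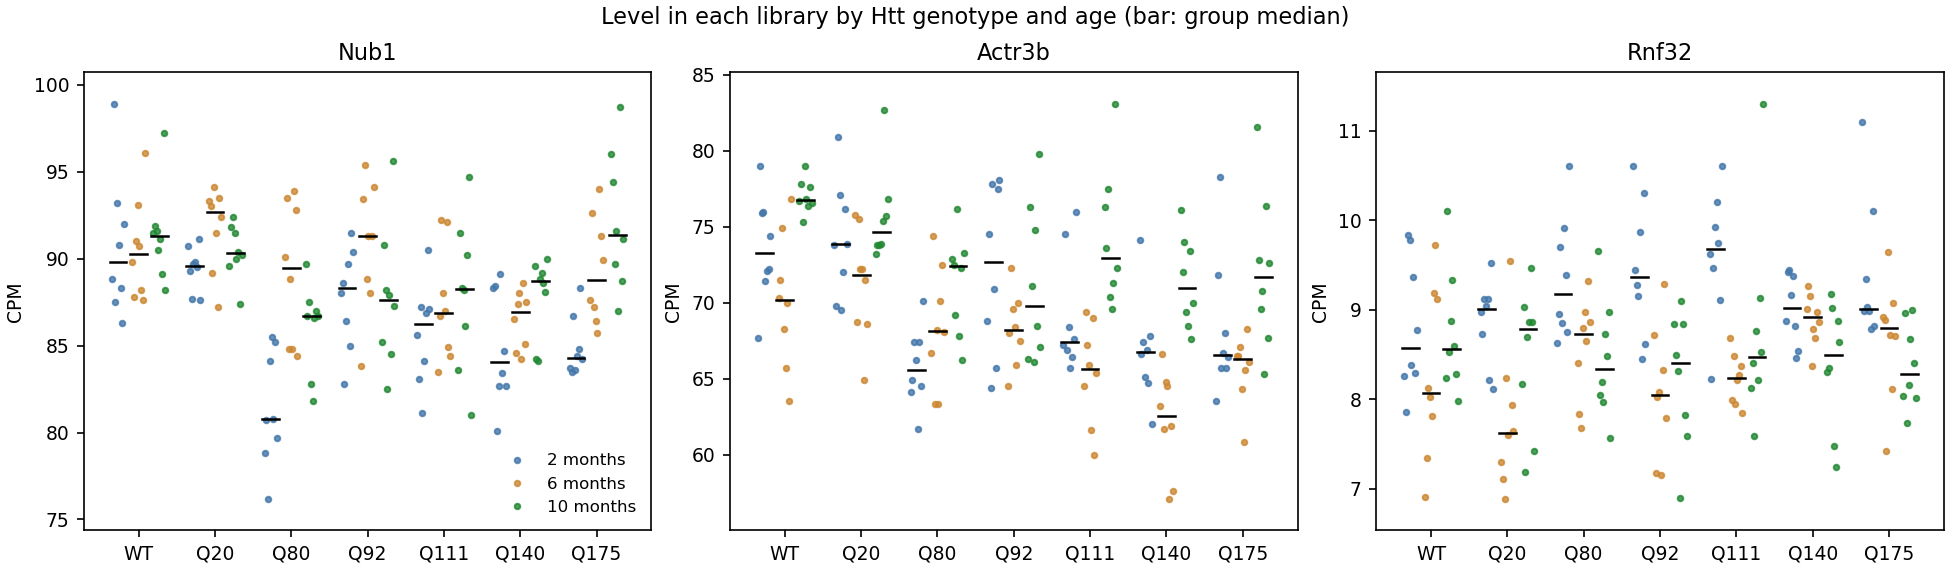
Levels of Nub1, Actr3b and Rnf32 in CPM (vertical axes, not starting at 0) by genotype and age, with 1 point per library and a bar at the median of each group of 8. Nub1 of Q80 at 2 months lies at 76.2 to 85.5 CPM, below the Q20 libraries at 87.6 to 91.1 CPM, whereas the Rnf32 groups overlap throughout.

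Rnf32, which lies between Drc1 and the genes near 26 Mb, was not free of overlap between any groups compared. Its libraries held 8.11, 9.01 and 9.52 CPM in Q20 and 8.23, 9.68 and 10.6 CPM in Q111 at 2 months, and 7.19, 8.78 and 9.47 CPM in Q20 and 7.73, 8.29 and 9.0 CPM in Q175 at 10 months. It was higher than Q20 in 11 of 15 comparisons and higher than WT in 8 of 15. A single one was called, Q140 against Q20 at 6 months (0.19, SE 0.06, edgeR adjusted p = 0.042), where 2.29% of genes were called.

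Within an age the order of the 7 genotype medians did not separate neighbours. For nearly every gene and age each of the 6 pairs of neighbours in that order had overlapping ranges. The exceptions were 5031410I06Rik at 2 months and Drc1 at 10 months, for each of which 5 of 6 pairs overlapped. Apart from these, no step from 1 genotype to the next in the order exceeded the spread over libraries.

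Groups of 8 that did not overlap at all were counted next. Against Q20 at 2 months, 2 of the 10 genes did not overlap in Q80 (0.0582% of all genes), 3 in Q111 (0.0233%), 3 in Q140 (0.0291%), 1 in Q175 (0.0291%) and none in Q92 (0.0698%). They were Nub1 and Galnt11 in Q80, Galnt11, Gm5067 and 5031410I06Rik in Q111, Gm5067, Gm10471 and Drc1 in Q140, and Gm5067 in Q175. Against WT 3 did not overlap in Q80 (0.0291%), 1 in Q111 (0.0174%), 2 in Q140 (0.0233%) and none in Q92 (0.00582%) or Q175 (0.0407%). At 10 months the 1 gene of the 10 in this state against Q20 was Drc1, in Q92 (0.0348%) and Q111 (0.029%).

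At 6 months Galnt11, Gm5067, Gm10471, 5031410I06Rik and Drc1 did not overlap between Q140 and Q20 (0.806% of all genes), nor did Drc1 between Q111 and Q20 (0.0341%). None of the 10 was free of overlap with Q20 in Q80 (0.0341%), Q92 (0.551%) or Q175 (1.08%). Against WT of that age the counts were 0 of the 10 in Q20 (6.21%), 2 in Q80 (7.94%), 1 in Q92 (6.04%), 2 in Q111 (9.07%), 6 in Q140 (8.63%) and 0 in Q175 (10.2%), shares of all genes that leave the counts of the 10 little to be read from.

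Taking the 5 longer alleles against the combined range of the 16 WT and Q20 libraries of the same age showed how widely each shift was shared. Of the 120 libraries of Q80 to Q175, 92 lay above that range for Gm10471, 89 for Galnt11, 88 for Gm5067, 73 each for Drc1 and 5031410I06Rik and 71 for Gm5862. For Actr3b 61 lay below it and for Nub1 57. Rnf32 and Abhd1 had 11 and 10 above it. Over the 16942 genes tested at all 3 ages, the median gene had 7 libraries above and 7 below. At least 60 libraries above, a bound chosen after the values were seen, were found for 0.0413% of genes, 7 in number. Of these, 6 were among the 10 genes described here and the other was Gm6410, a long intergenic RNA gene on chromosome 8 with 77. At least 60 below were found for 0.0059%, which was Actr3b alone, and no other gene within 20 Mb of Htt met either bound.

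The shares by age and by allele are descriptions. For Drc1 32 of 40 libraries lay above the range at 2 months, 36 at 6 months and 5 at 10 months, when a single WT female at 16.5 CPM set the bound. Without that library, a choice made after seeing the data, 32 of 40 lay above the next bound of 14.4 CPM at 10 months. For Galnt11 the counts were 32, 28 and 29 of 40, and for Gm10471 33, 30 and 29. Among alleles, Galnt11 of Q92 had 12 of 24 libraries above the range and Q140 and Q111 had 21 each. For Gm5067 Q92 had 13 of 24 and Q140 21, whereas for Drc1 the alleles ranged from 12 (Q175) to 17 (Q111).

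**Figure D3:**
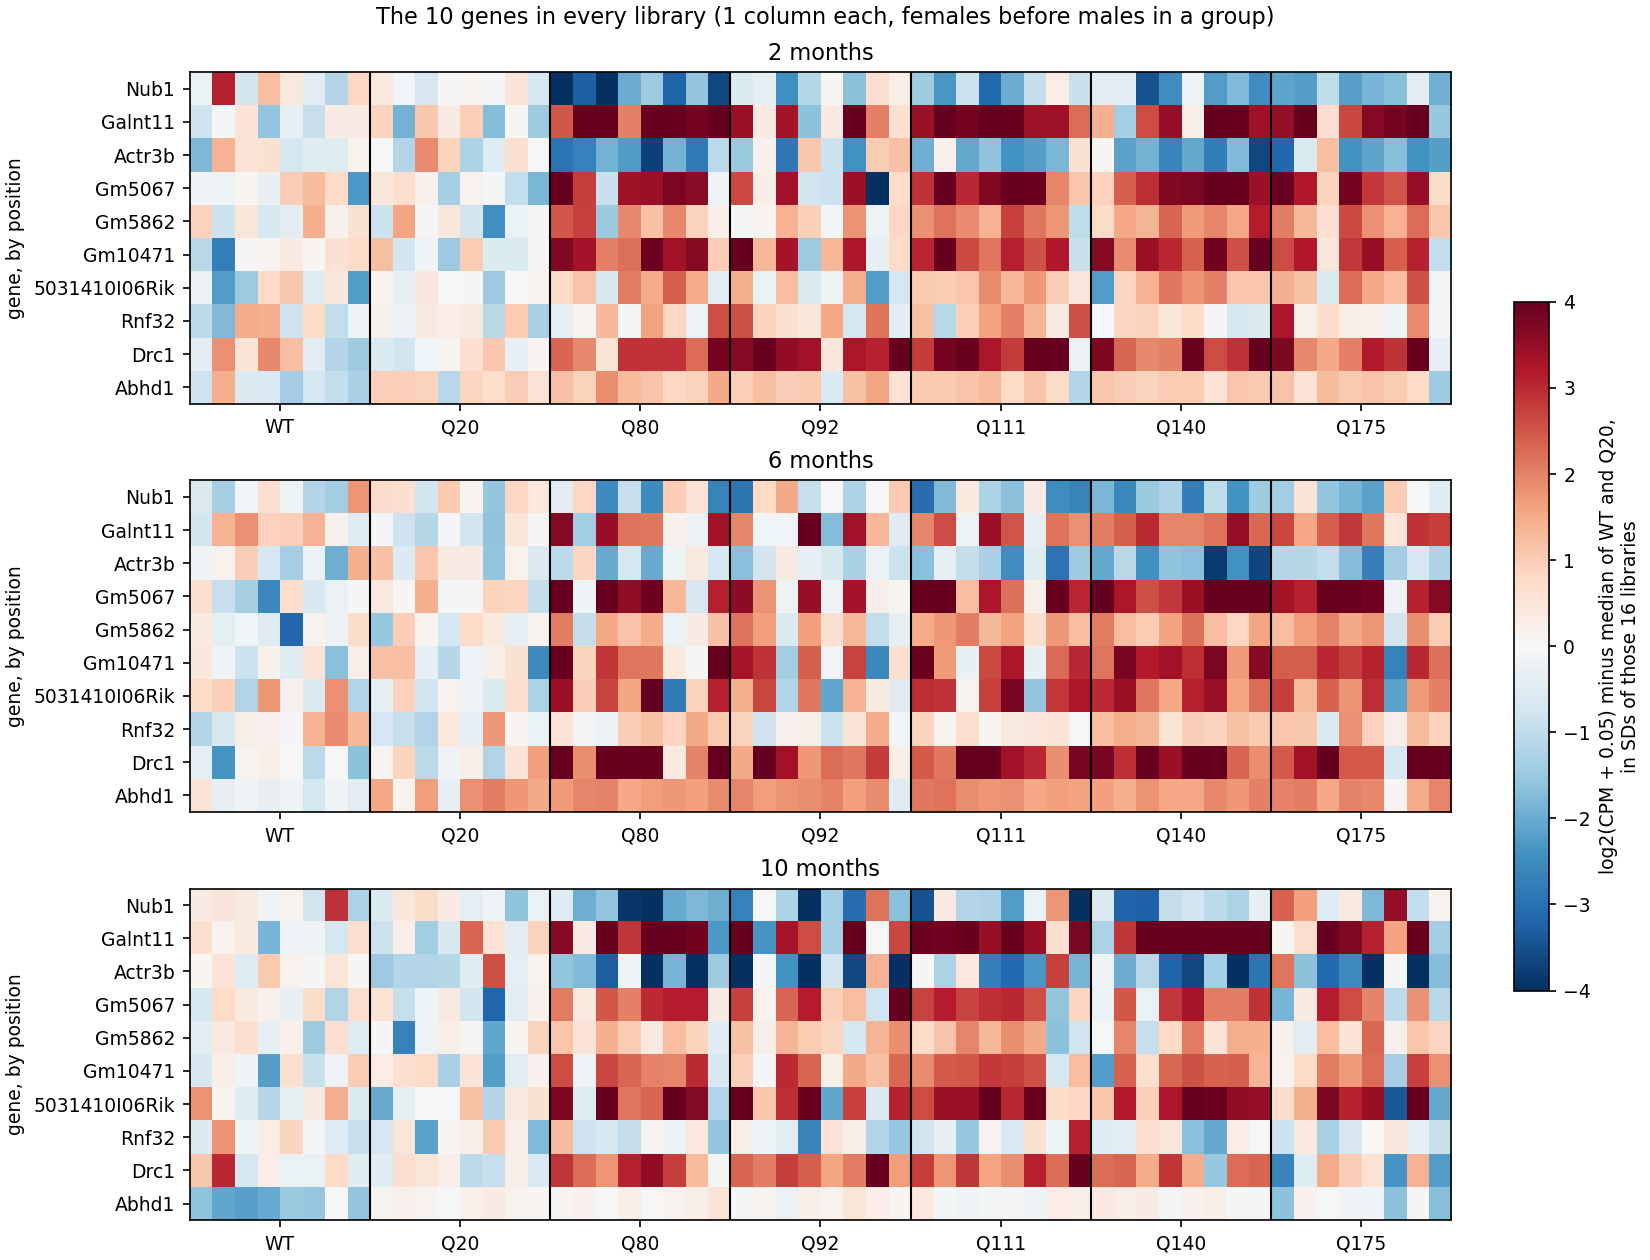
Heat map of the 10 genes (rows, ordered by position) in the 56 libraries of each age (columns, ordered by genotype), coloured by log2(CPM + 0.05) minus the median of the 16 WT and Q20 libraries of that age and divided by their SD. Most Q80 to Q175 columns are high for Galnt11, the 4 low-expressed genes and Drc1 and low for Nub1 and Actr3b, with single columns in each group that look like WT and Q20.

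A test across all 7 genotypes at each age set the 10 genes beside all others. At 2 months edgeR called 13 of 17194 genes (0.0756%), and 5 of them were Drc1 (adjusted p = 0.0029), Galnt11 (0.0039), Gm10471 (0.0039), Nub1 (0.009) and Gm5067 (0.012), ranked 2, 3, 4, 6 and 7 by p. Of the 241 other tested genes of the window 1 was called, the long intergenic RNA gene 6030443J06Rik (adjusted p = 0.037). At 6 months 47.5% of genes were called, and 9 of the 10, all but Nub1 (adjusted p = 0.056), which given that share says little of them. At 10 months 7.85% were called, and 7 of the 10, leaving Actr3b (adjusted p = 0.081), Gm5862 (0.17) and Rnf32 (0.95). Among the knock-in alleles alone, without WT, 0 of the 10 were called at 2 months, 8 at 6 months and 1 at 10 months, when 3, 3238 and 1231 of all genes were called.

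The genes next to Htt itself were examined as the nearest neighbours of the edited locus. Of Mfsd10, Nop14 and Grk4 on the lower side and Rgs12, Dok7 and Lrpap1 on the higher side, all within 0.179 Mb of Htt, none was called at 2 months by edgeR (adjusted p from 0.57 to 0.99). At 6 months Mfsd10 (adjusted p = 2.5e-12), Dok7 (1.5e-07), Nop14 (0.012) and Rgs12 (0.036) were called, when 47.5% of all genes were. At 10 months Nop14 (adjusted p = 0.00014) and Rgs12 (0.016) were called. At 10 months 16.4% of the other tested genes within 20 Mb of Htt were called, against 7.75% on the rest of chromosome 5 and 7.68% elsewhere. Htt itself was lower in Q175 than in Q20 at 10 months, at 158 against 198 CPM (log2 difference -0.33, SE 0.08, edgeR adjusted p = 0.0046).

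**Figure D4:**
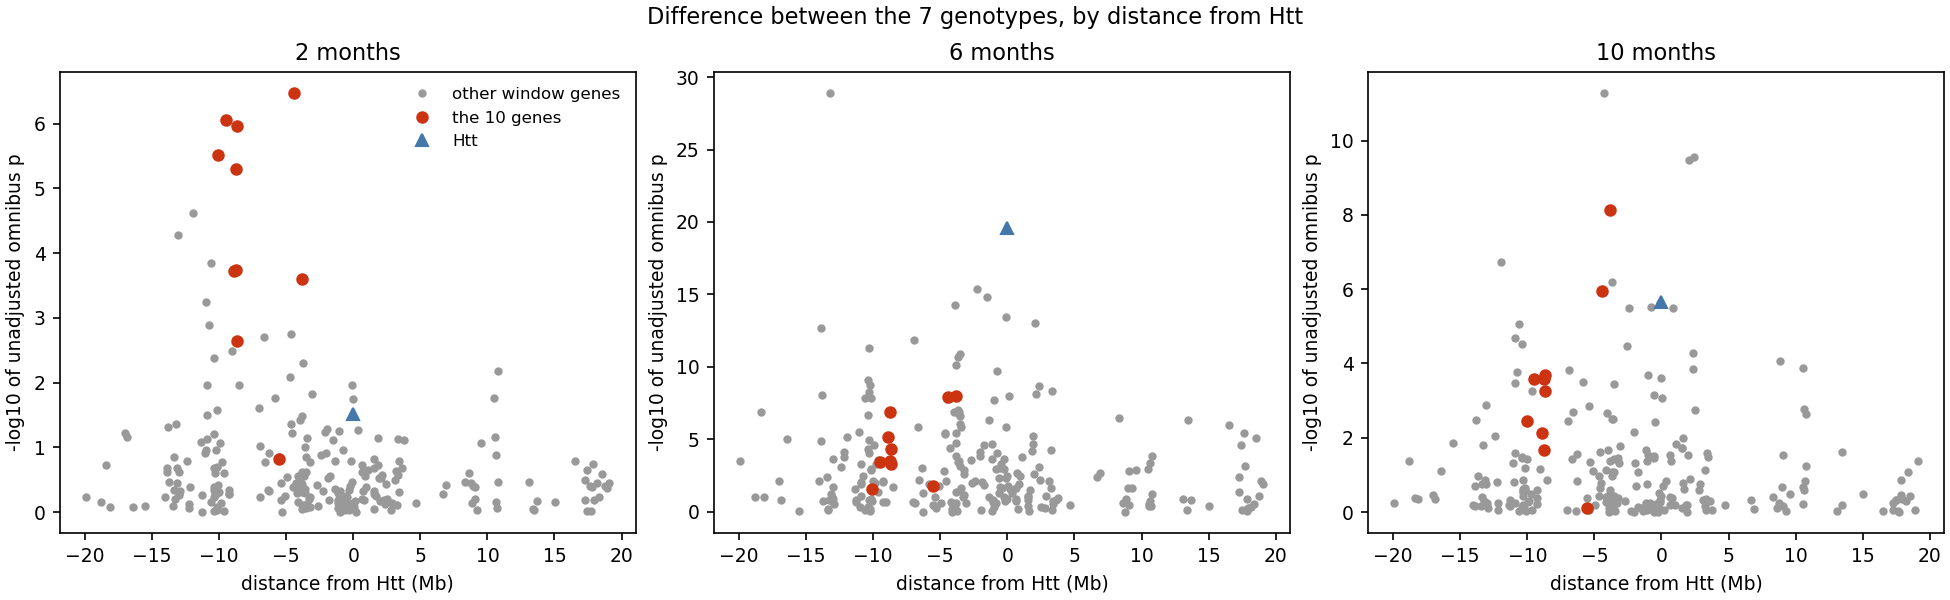
Strength of the test across 7 genotypes (-log10 of the unadjusted p) for each tested gene of the window against its distance from Htt in Mb, at 2, 6 and 10 months, with the 10 genes in red and Htt as a triangle. At 2 months the points of Drc1, Galnt11, Gm10471, Nub1 and Gm5067 stand above the other genes of the window, and at 6 months high points are spread over the whole window.

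Whether the genotype differences of the 10 genes changed with age or sex was tested separately. The choice of genes is not known to rest on these interactions, but it used the same libraries, so the tests are not independent of it. No gene of the 10 was called in any of the 3 interaction tests by edgeR. Between 2 and 10 months 2.12% of genes were called for an interaction of genotype and age. Of the 10, 2 had an unadjusted p under 0.05, Drc1 and Nub1 (0.025 and 0.035), against 12.1% of all genes. Over 3 ages of the knock-in alleles 7.78% were called, and 3 of the 10 had an unadjusted p under 0.05, with Drc1 at 0.0057, Nub1 at 0.0081 (adjusted p = 0.079) and Actr3b at 0.045 (adjusted p = 0.2), against 23.5% of all genes. For genotype and sex 0.0278% of genes were called and none of the 10 reached an unadjusted p under 0.05. With DESeq2's likelihood ratio test 2 of the 10 were called over the 3 ages, Nub1 (adjusted p = 0.037) and Drc1 (adjusted p = 0.047). The share of all genes called by that DESeq2 test is not given here, so the count of 2 has no background beside it.

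Within groups, that is after subtracting the mean of each genotype, age and sex, the levels of these genes moved together from library to library in the longer alleles. For 9 genes without Abhd1, whose 2 bands allow no pooled correlation, 36 pairs were examined in the 120 libraries of Q80 to Q175 and again in the 48 libraries of WT and Q20, 72 relations in all. Two-sided permutation tests within groups, with 100000 permutations and Benjamini-Hochberg adjustment over the 72, called 25 of 36 pairs in Q80 to Q175 and 2 of 36 in WT and Q20. The median size of r was 0.42 and 0.12. The difference between those sets of libraries was not tested, and they differ in number. The share of pairs called among other genes was not computed, so the count of 25 has no background beside it. Genes of other chromosomes also reached a large r in Q80 to Q175, such as Pdhb with Gm5067 (-0.68) and Gnas with Gm5862 (-0.67). Of the 25 pairs, 23 were also called by Spearman's rho, and all 25 had the same sign at each of the 3 ages.

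Galnt11 and Gm10471, whose transcripts share no words, had r = 0.66 and rho = 0.6 in Q80 to Q175 (adjusted permutation p = 4.8e-05 and 5.1e-05). Without the 2 farthest libraries r was 0.63, within 2, 6 and 10 months it was 0.66, 0.6 and 0.7, and in WT and Q20 it was 0.23 with rho 0.29 (adjusted permutation p = 0.31 and 0.16). Actr3b was lower where Gm5067 was higher, with r = -0.69 and rho = -0.66 (adjusted permutation p = 4.8e-05 and 5.1e-05), -0.67 without the 2 farthest, and -0.62, -0.63 and -0.83 within the 3 ages. In WT and Q20 the same pair had r = -0.25 and rho = -0.32 (adjusted permutation p = 0.16 and 0.097).

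Nub1 and Galnt11 had r = -0.51 and rho = -0.54 in Q80 to Q175 (adjusted permutation p = 4.8e-05 and 5.1e-05), -0.52 without the 2 farthest and -0.44, -0.66 and -0.45 within ages, against 0.05 and 0.12 in WT and Q20 (adjusted permutation p = 0.9 and 0.66). The unadjusted p of these 3 pairs, 1e-05, is the smallest that the permutations can give. Between the 2 ends of the stretch the relation was looser. Galnt11 and Drc1 had r = 0.35 and rho = 0.28 (adjusted permutation p = 0.0042 and 0.03). Their r was 0.32 without the 2 farthest, 0.27, 0.28 and 0.44 within ages, and 0.01 in WT and Q20 (adjusted permutation p = 0.98). In Q80 to Q175 Drc1 was not called with Nub1 (r = -0.12, adjusted permutation p = 0.45) or Actr3b (r = -0.21, adjusted permutation p = 0.14). In WT and Q20 the pair of Nub1 and Drc1 was called (r = 0.37, adjusted permutation p = 0.048). None of the 8 pairs with Rnf32 was called, with r from -0.23 to 0.18. All libraries of a pair share depth and preparation, and the 3 near copies can also share reads.

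Across all 16941 other genes, the genes that followed each of the 9 most closely within Q80 to Q175 were often from the same window, which holds 1.45% of the genes tested. Of the 10 genes with the largest size of r, 7 lay in the window for Nub1, Gm10471 and 5031410I06Rik, 6 for Galnt11, Gm5067 and Drc1, 3 for Actr3b, 2 for Gm5862 and none for Rnf32. In WT and Q20 the number was 0 for each of the same 9 genes. Gm6410 on chromosome 8 had r = 0.72 with Gm10471 and 0.61 with Galnt11, given here as descriptions, and shared no word of 75 bases with any of the 10.

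**Figure D5:**
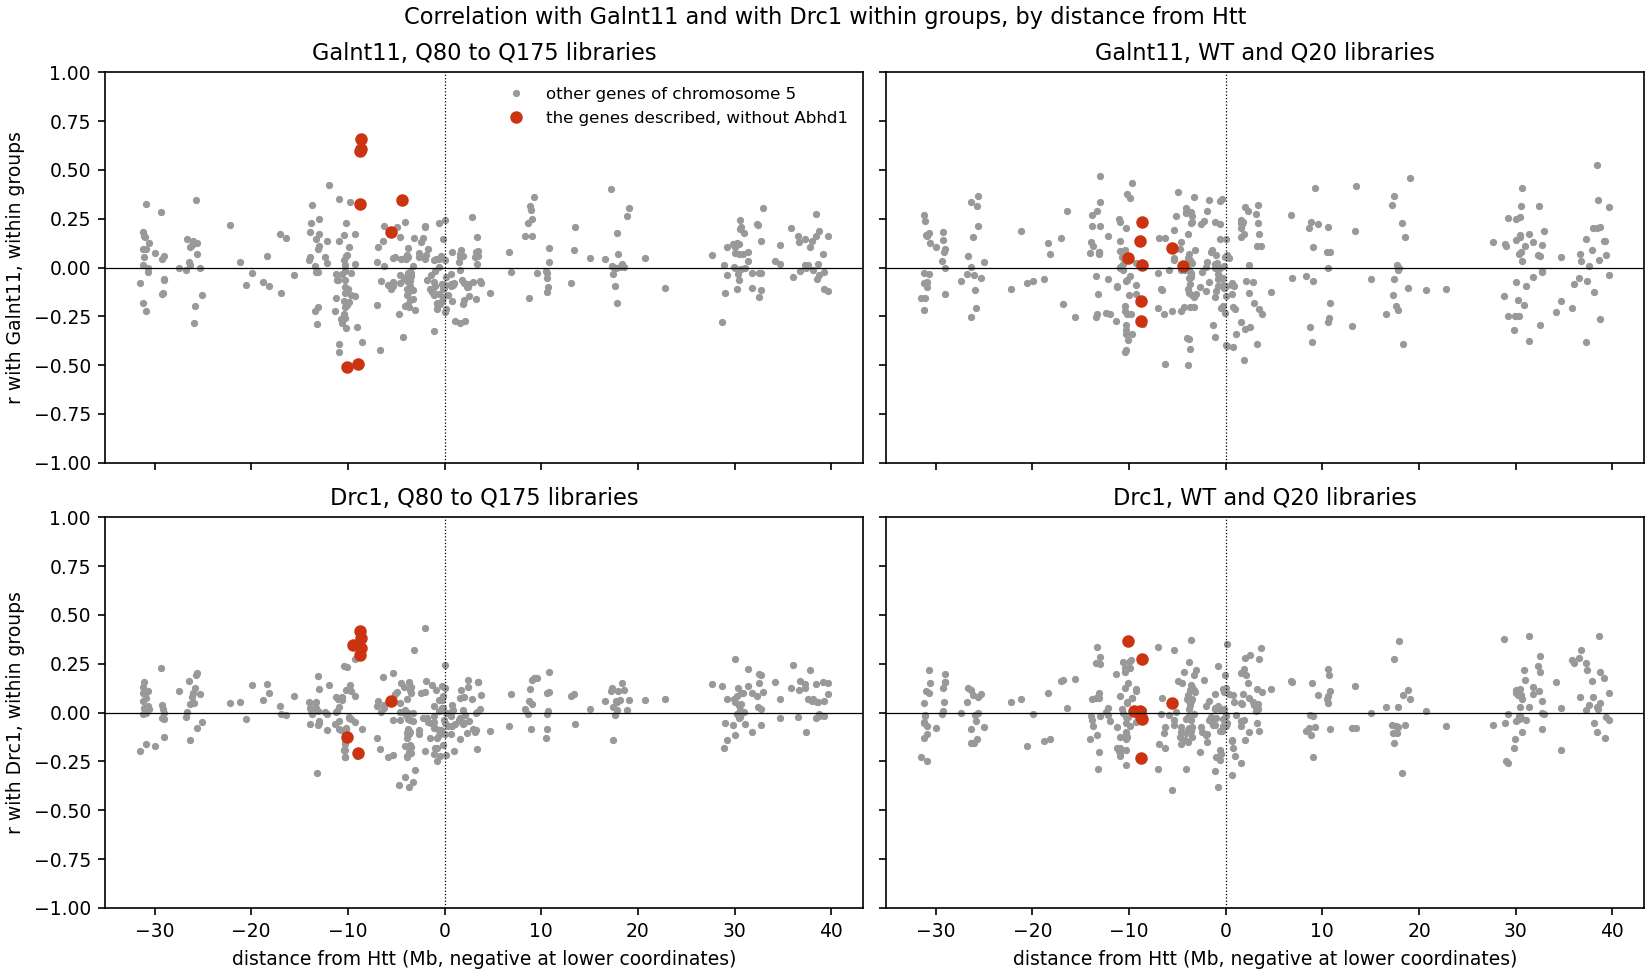
Pearson's r of each gene's within-group deviations with those of Galnt11 and of Drc1 (vertical axes) against the gene's distance from Htt in Mb along chromosome 5, for the 120 libraries of Q80 to Q175 and the 48 libraries of WT and Q20. For Galnt11 in Q80 to Q175 the genes near 9 Mb (red) reach 0.66 above and -0.51 below 0, farther than the other genes shown in grey, and Abhd1 is left out.

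Over the 18 knock-in groups, the genes most like each of the 10 were taken among genes outside the 10. Likeness was Pearson's r of the mean log2 differences from WT of the same age. Among the 10 themselves r reached 0.95 for Gm5067 with Gm5862 and 0.91 for Galnt11 with 5031410I06Rik. It was 0.9 for Gm10471 with 5031410I06Rik and 0.79 for Drc1 with Gm5067. For Nub1, Actr3b, Rnf32 and Abhd1 the highest r with another of the 10 was 0.72, 0.72, 0.56 and 0.52. Gm6410 had 0.88 with Gm10471 (rho 0.82) and 0.84 with Galnt11 (rho 0.77), and the pseudogene Gm11331 on chromosome 13 had 0.85 with Galnt11 (rho 0.87). Gm7361 of the same window had 0.76 with Actr3b (rho 0.69) and Cct8l1, also of the window, 0.76 with Gm5067 (rho 0.8). For Abhd1 the nearest was Timp4 with 0.88 (rho 0.82), for Drc1 Psrc1 with 0.78 (rho 0.63), and for Nub1 Smad2 with 0.85 (rho 0.81). All groups of an age share their WT libraries, which at 6 months are of another library series. On differences from Q20 the r was 0.9 for Gm6410 with Gm10471, 0.88 for Gm6410 with Galnt11, 0.73 for Gm11331, 0.8 for Gm7361, 0.35 for Cct8l1, 0.41 for Timp4, 0.57 for Psrc1 and 0.58 for Smad2. The values of Gm11331, Cct8l1, Timp4, Psrc1 and Smad2 were lower than those on differences from WT. All of these values describe likeness and carry no test.

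Partners of these genes in the same complex, pathway or family were counted from lists. None of 9 tested genes of the nexin-dynein regulatory complex, 16 GalNAc-transferases, 19 genes of NEDD8 conjugation, 9 of the Arp2/3 complex or 18 of the alpha/beta hydrolase domain family was called across the 7 genotypes by edgeR at 2 months, against 0.0756% of all genes. At 6 months 4 of 9, 9 of 16, 14 of 19, 8 of 9 and 15 of 18 of them were called, in that order, against 47.5% of all genes. At 10 months 1 of each list was called except the Arp2/3 complex with 0 of 9, against 7.85% of all genes. They were Drc3 of the nexin-dynein complex, Galnt18, Cul4a, a scaffold of NEDD8-activated ubiquitin ligases, and Abhd3. Of 19 genes of ependymal cells and motile cilia, none was called at 2 or 10 months and 1, Rsph9, at 6 months, against 0.0756%, 7.85% and 47.5% of all genes at 2, 10 and 6 months. The summed level of those ciliary genes had group medians of 72.0 to 82.0 CPM at 2 months, 75.2 to 80.5 CPM at 6 months and 66.9 to 75.2 CPM at 10 months, and their part in the Drc1 values was not tested.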

How the data were processed

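Polyadenylated cortex RNA was extracted with Qiagen miRNeasy kits and made into standard Illumina libraries, per the labels' protocols. The submitters' processing notes list CASAVA 1.8.2. Neither aligner, counting tool, strand setting nor genome build is given in the sources used here. The deposited tables hold estimated counts, of which 17.7% are not whole numbers, and FPKM, in which the authors scaled counts by transcript length and library size, for 39179 Ensembl gene IDs. Of these IDs 37607 matched the GENCODE annotation of GRCm38, which gave symbols and coordinates.

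Estimated counts were rounded and fitted with edgeR 4.0.16 (R 4.3.3), separately at each age, by the quasi-likelihood F test with TMM normalisation, genotype and sex as terms, and genes kept by filterByExpr (minimum count 10, minimum total 15). P-values were adjusted over all genes tested by Benjamini and Hochberg, and a gene was called at an adjusted p under 0.05. Interactions of genotype with age or sex were fitted over ages together. The p-values of these fits set differences between groups against the spread between libraries within groups, estimated over all libraries of a fit. FPKM served an alternative with limma 3.58.1, and DESeq2 1.42.0 another. Within-group relations were computed in Python 3.11.15 with NumPy 2.4.6 and SciPy 1.17.1, on log2 CPM. The fits were also run on simulated counts with a single dispersion and changes in Q140 alone. That setting is unlike these data, and no result given here rests on it.

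The 10 genes and the partner and marker lists were chosen with earlier results of these data known. The text names all 10, Htt, the 3 tested genes nearest to Htt on each side and other genes of the window called at all 3 ages. It also names some of the 3 genes outside the 10 most like each of them, and up to 3 called partners per list. Gm6410 at the bound of 60 libraries was named after its values were seen. Same-numbered libraries of different genotypes were not paired, since their deviations had mean correlations of 0.011, 0.068 and 0.001 at 2, 6 and 10 months, with single values down to -0.66.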

Additional observations from a re-analysis of the deposited data

Results flagged for a closer look

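Of 210 groups of 8 libraries (10 genes, 7 genotypes, 3 ages), 22 held a library whose gap to its nearest neighbour, divided by the range of the group, exceeded Dixon's critical value at the 95% level. Chance alone gives such a gap in about 1 in 20 groups. Abhd1 accounted for 10 of them. At 2 months these were a WT female at 7.17 CPM (next highest 2.32), a Q20 female at 1.72 (next lowest 4.36), a Q111 male at 1.66 (4.89), a Q140 male at 4.32 (5.21) and a Q175 male at 1.44 (4.36). At 6 months they were a WT female at 2.75 CPM (next highest 1.95), a Q92 male at 1.62 (next lowest 5.0) and a Q175 male at 2.21 (4.6). At 10 months they were a WT male at 4.89 CPM (next highest 1.98) and a Q80 male at 6.57 (5.54).

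Drc1 had 5 such libraries. Its lowest libraries were a Q92 male at 15.5 CPM (next 18.1) and a Q111 male at 14.9 (17.8) at 2 months and a Q140 male at 12 (14.8) at 10 months. Its highest were a WT female at 16.5 CPM (next 14.4) and a Q92 male at 18.4 (16.2) at 10 months. The Q92 and Q111 males of 2 months were also in the lower band of Abhd1, at 2.28 and 1.66 CPM.

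At 6 months the Q175 male low for Abhd1 was also the lowest of its group for Gm5067, at 0.488 CPM (next 1.31), and for Gm10471, at 0.0232 CPM (next 0.317). At 10 months a WT male reached 97.2 CPM of Nub1 (next 91.9), and this is the WT male that was high for Abhd1. The remaining libraries, all of 10 months, were a Q111 male at 38.7 CPM of Galnt11 (next lowest 43.5), a Q20 male at 82.7 CPM of Actr3b (next highest 76.8), a Q175 male at 0.732 CPM of Gm5862 (0.44) and a Q111 male at 11.3 CPM of Rnf32 (9.13).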

How the results depend on the processing

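The genes called across 7 genotypes at 2 months (13) numbered 71 with no filter on low counts, 23 without the sex term, 5 without the 58 libraries whose median correlation was under 0.99, 20 without the 5 libraries standing apart, 3 with the knock-in alleles alone, 20 by limma on log2(FPKM + 0.1) with no filter and 57 by DESeq2's likelihood ratio test. Other called genes of the window (1) numbered 3, 2, 0 with a term for the L code in library names, 2 without the libraries standing apart, 2 without Q80 male 1, 0 with the knock-in alleles alone, 2 in each of the 3 limma fits and 4 by DESeq2. At 6 months 8371 genes and 138 of the window became 343 and 4 without the libraries under 0.99, which takes away all 8 WT libraries, and 3238 and 55 with the knock-in alleles alone. At 10 months 1351 became 2066 without the libraries under 0.99. For genotype and age over 3 ages, 1393 genes became 342 without those libraries, and 17 of the window became 6, or 10 with no filter. For genotype and sex, 5 became 0 without those libraries and 0 by DESeq2. With the knock-in alleles alone, which leaves out WT, 0, 8 and 1 of the 10 genes were called at 2, 6 and 10 months. By DESeq2's likelihood ratio test with WT included, 8, 10 and 8 of the 10 were called. Of all genes that test called 57 at 2 months. Its numbers at 6 and 10 months are not given here, so those counts have no background beside them. With the replicate number as a block, which the labels do not tie to a shared animal or day, genes called were 11, 9134 and 1289 at the 3 ages and 336, 1151 and 4 for the interactions. Called differences of the 10 genes from WT at 6 months were not followed through the alternatives. Following the other 30 called differences gave 422 values. Of these, 306 kept the call, 116 lost it in the same direction and 0 changed direction. Males alone kept 1 of 30 calls, females alone 10, the fits without the libraries under 0.99 kept 9 and the block 28, and the fit without the libraries standing apart kept 12 of 15. The cause of these changes was not tested, except that fits of 1 sex or without libraries hold fewer samples. The cut at 0.98 was chosen after seeing the data. Q80 male 1, left out in some fits, is a library of 2 months. Its name holds the code of the Q80 females of that age, unlike the names of the other Q80 males. The sex of that library was not tested. Counting error limits the 4 genes of low level.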
